A study of Papio anubis with 25 samples.

Results

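The mucin genes of the olive baboon (Papio anubis) are described here across 3 salivary glands, the pancreas and the liver. The members were chosen by symbol alone: MUC7, MUC19, MUC5B, MUC6, MUC1, MUC4, MUC13, MUC15 and MUC16, 9 genes, of which 8 were matched among the 21287 genes of the abundance table. MUC6 was not analysed here.

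Mucins are large proteins whose serine- and threonine-rich stretches carry dense O-linked sugar chains. Secreted gel-forming mucins join end to end into the polymers that give mucus and saliva their viscosity, whereas a small secreted mucin such as MUC7 stays soluble. Membrane mucins are anchored in the apical surface of epithelial cells, where they form a glycan layer and can signal through their cytoplasmic tails. In salivary glands the gel-forming mucins are made by mucous acinar cells, and the parotid is known as a mainly serous gland, the sublingual as a mainly mucous one and the submandibular as mixed.

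The study measured messenger RNA by bulk RNA sequencing of flash-frozen tissue from 5 olive baboons, in a series concerned with amylase expression across salivary and digestive organs. Each animal gave 1 library each of parotid, submandibular and sublingual gland (left glands), pancreas and liver, so that every tissue group held 5 libraries and there were 25 in all. The male was baboon 5 and the other 4 animals were female, and the labels used here give no treatment, genotype or age. RNA came from a few thin sections of each tissue, so a library reports what those sections held. Levels are in TPM, a measure of transcript abundance that is corrected for transcript length and scaled to the same total in every library, so the number of reads behind a value is unknown.

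Libraries of 1 gland differed widely in what they contained. AQP5, the water channel of salivary acinar cells, was under 10 TPM in 5 of the gland libraries: parotid of baboons 2 and 5, submandibular of baboon 2, and sublingual of baboons 2 and 4. Parotid of baboon 2 had a sum of 21274 TPM over 5 adipose markers, against at most 396 TPM in the other parotid libraries. The sublingual library of baboon 2 had 91181 TPM over 6 skeletal muscle markers. Stratified mucosa markers (9 genes, keratins among them) summed to 120126 TPM in the sublingual library of baboon 1 and 54369 TPM in that of baboon 4, and to at most 541 TPM in the other 3. Sublingual gland of baboon 5 was unlike that of the other 4 animals: its library held 302927 TPM over 10 serous salivary markers, of which ZG16B gave 217252 and PIP 61330.1 TPM, while BPIFA2 (1442 TPM), CA6 (606) and PRH2 (4499) were far below their submandibular means (29797, 3742 and 65516 TPM). Whether its section represents the sublingual gland as the other 4 do was not tested. Sublingual fold changes of MUC7 and MUC19 against pancreas and liver are given with and without it. Those of genes outside the listed mucins are given with it only, as are means and shares. Pancreas and liver libraries matched their labels, with 63652 TPM or more over 5 pancreatic acinar markers in every pancreas library and 41517 TPM or more over 4 hepatocyte markers in every liver library.

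**Figure D1:**
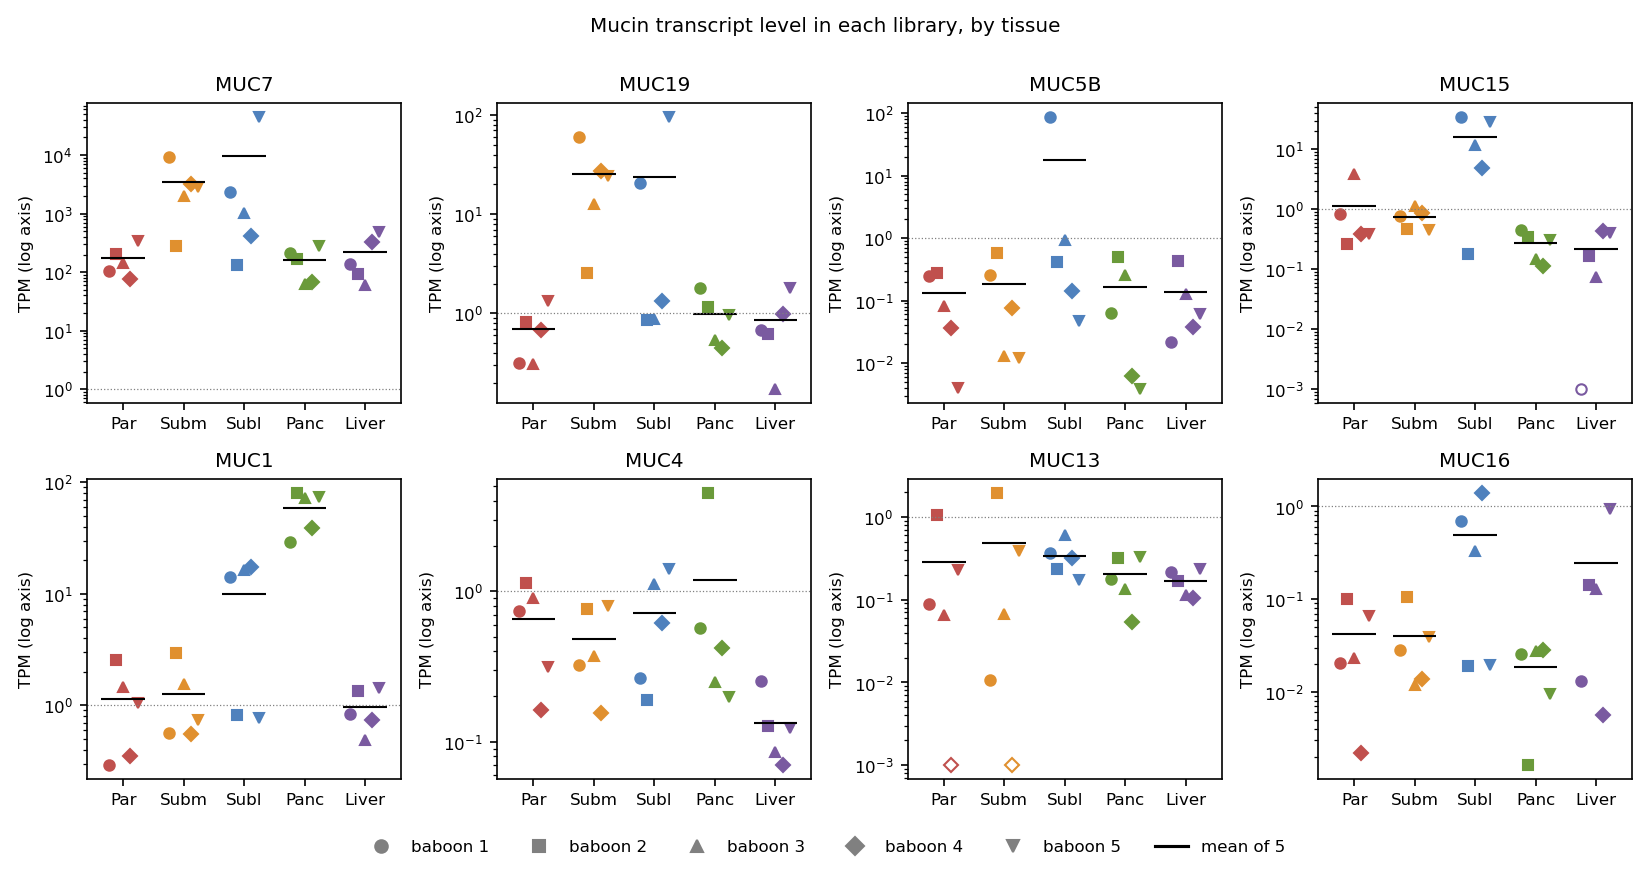
Level of each of the 8 mucin genes in every library, in TPM on a log axis, by tissue (Par, parotid; Subm, submandibular; Subl, sublingual; Panc, pancreas); symbols are animals, bars are means of 5, the dotted line is 1 TPM and open symbols at the bottom are values of 0. MUC7 lay above 59 TPM in all 25 libraries, MUC1 was highest in the 5 pancreas libraries, and MUC5B passed 1 TPM in the sublingual library of baboon 1 alone.

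MUC7 was the most abundant of the 8 listed mucins in 24 of 25 libraries, the exception being the pancreas of baboon 3, where MUC1 was higher. This rank holds among the 8 only: MUC21, a mucin outside them, was above MUC7 in the sublingual libraries of baboons 1 and 4. MUC7 encodes the small soluble salivary mucin, which binds oral bacteria. In the submandibular gland it measured 9327, 283, 1967, 3145 and 2789.9 TPM in baboons 1 to 5. In the sublingual gland it measured 2326, 133, 1014, 415 and 44549.7 TPM. The first gland was high in 4 of 5 animals and low in baboon 2, and the sublingual values ran over a 334-fold range with baboon 5 far above the rest. In parotid it measured 106, 202, 141, 77.6 and 341 TPM. Pancreas gave 213, 165, 63.0, 68.6 and 281 TPM. Liver gave 137, 94.2, 59.8, 322 and 485 TPM. Parotid, pancreas and liver thus shared 1 low range. The submandibular library of baboon 2 and the sublingual libraries of baboons 2 and 4 lay within it.

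As means, MUC7 stood at 9688 ± 19507 TPM in sublingual, 3502 ± 3438 in submandibular, 219.5 ± 179 in liver, 174 ± 105 in parotid and 158 ± 93.8 in pancreas (SD, n = 5 each). By the median the order was submandibular (2789.9 TPM), sublingual (1014), pancreas (165), parotid (141) and liver (137), so the first place depended on baboon 5. Scaling kept the order of these 2 means but nearly closed the gap between them. The sublingual and submandibular means were 6313 and 6238 TPM with trimmed-mean (TMM) scaling and 6463 and 6368 TPM with median-of-ratios scaling. MUC7 was the 8th most abundant gene of the submandibular library of baboon 1 and the 3rd of the sublingual library of baboon 5, and ranked 518th and 591st in the submandibular and sublingual libraries of baboon 2. Of the summed TPM of the 8 mucins, MUC7 made up 98.7% ± 1.07 in submandibular, 98.4% ± 0.919 in liver, 97.4% ± 1.32 in parotid and 96.5% ± 2.59 in sublingual (SD, n = 5). In pancreas its share was 68.0% ± 15.7, and MUC1 took most of the rest with 30.7% ± 15.7.

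Tissues were compared with limma on log2(TPM + 1), with terms for tissue and animal, over the 14991 genes whose mean reached 1 TPM in at least 1 tissue. A gene was called higher or lower at a Benjamini-Hochberg adjusted p under 0.05 with a log2 fold change of at least 1 in size. Of the 8 measured members 6 could be tested: MUC13 and MUC16 averaged under 1 TPM in every tissue. MUC5B passed this filter through the sublingual gland alone and MUC4 through the pancreas alone, so these had to be higher there, and the number of members called is a description and no support for a pattern. The 10 comparisons share libraries, since each tissue enters 4 of them, and their values are given side by side. In bulk tissue, fewer cells of a type and less RNA per cell cannot be told apart.

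Against the pancreas, MUC7 was higher in the submandibular gland by 3.99 ± 0.86 on the log2 scale (SE; limma, Benjamini-Hochberg adjusted p = 0.00544), and the 2 groups of libraries did not overlap, although only by 283 against 281 TPM. This submandibular call was lost without baboons 1, 3 or 4, each left out with all its tissues (log2 fold change 3.63, 3.76 and 3.62, limma adjusted p = 0.0619, 0.0761 and 0.0617). Sublingual MUC7 was higher than pancreatic by 3.40 ± 0.86 (SE; limma adjusted p = 0.0162), with 4 of 5 sublingual libraries above every pancreas library. That call was lost without baboons 1, 3 or 5 (3.39, 3.25 and 2.42, limma adjusted p = 0.0787, 0.0981 and 0.0879), with TMM or median-of-ratios scaling (2.60 and 2.61, limma adjusted p = 0.0753 and 0.0718), and with only these 2 tissues fitted (limma adjusted p = 0.0655). Without the sublingual library of baboon 5 alone it was 2.42 (limma adjusted p = 0.0416). Parotid and pancreas differed in MUC7 by 0.18 ± 0.86 (SE; limma adjusted p = 0.922).

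Against the liver, submandibular MUC7 was higher by 3.70 ± 0.86 (SE; limma adjusted p = 0.00319) and in 5 of 5 animals, with 4 of 5 libraries above every liver library. Without baboon 1 this fell to 3.10 (limma adjusted p = 0.0511). Sublingual MUC7 was higher than in liver by 3.10 ± 0.86 (SE; limma adjusted p = 0.0136), also in 5 of 5 animals, with 3 of 5 libraries above every liver library. Leaving out only the sublingual library of baboon 5 gave 2.12 (limma adjusted p = 0.0590), and leaving out baboons 1, 3 or 5 whole gave 2.86, 2.86 and 2.25 (limma adjusted p = 0.0774, 0.0955 and 0.0820). With only these 2 tissues fitted the adjusted p was 0.0653 (limma). Parotid and liver differed by -0.12 ± 0.86, and pancreas and liver by -0.30 ± 0.86 (SE; limma adjusted p = 0.961 and 0.882).

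MUC19, a large gel-forming mucin known from mucous salivary cells, followed the same submandibular libraries at a far lower level. Submandibular libraries of baboons 1 to 5 gave 59.8, 2.56, 12.8, 27.6 and 24.5 TPM. Sublingual libraries gave 20.6, 0.853, 0.870, 1.34 and 95.6 TPM. All 5 submandibular values lay above every parotid, pancreas and liver value, while 3 of the 5 sublingual values fell within the range of those tissues. Parotid measured 0.318, 0.814, 0.308, 0.679 and 1.34 TPM. Pancreas measured 1.82, 1.16, 0.539, 0.443 and 0.960 TPM. Liver measured 0.688, 0.614, 0.172, 0.985 and 1.81 TPM. The means were 25.5 ± 21.6 TPM in submandibular, 23.8 ± 41.0 in sublingual, 0.984 ± 0.554 in pancreas, 0.853 ± 0.608 in liver and 0.691 ± 0.424 in parotid (SD, n = 5).

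In the fit, submandibular MUC19 was higher than in pancreas by 3.27 ± 0.69 (SE; limma adjusted p = 0.00439) and than in liver by 3.38 ± 0.69 (SE; limma adjusted p = 0.000854), in 5 of 5 animals each. Without baboon 4 the difference from pancreas was 3.01 (limma adjusted p = 0.0548). Sublingual MUC19 missed the threshold against pancreas at 1.86 ± 0.69 (SE; limma adjusted p = 0.0809) and against liver at 1.98 ± 0.69 (SE; limma adjusted p = 0.0522). Without baboon 2, whose sublingual library was rich in muscle markers, these reached 2.38 and 2.42 (limma adjusted p = 0.0287 and 0.0221). Without the sublingual library of baboon 5 they were 1.02 and 1.13 (limma adjusted p = 0.218 and 0.207).

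**Figure D2:**
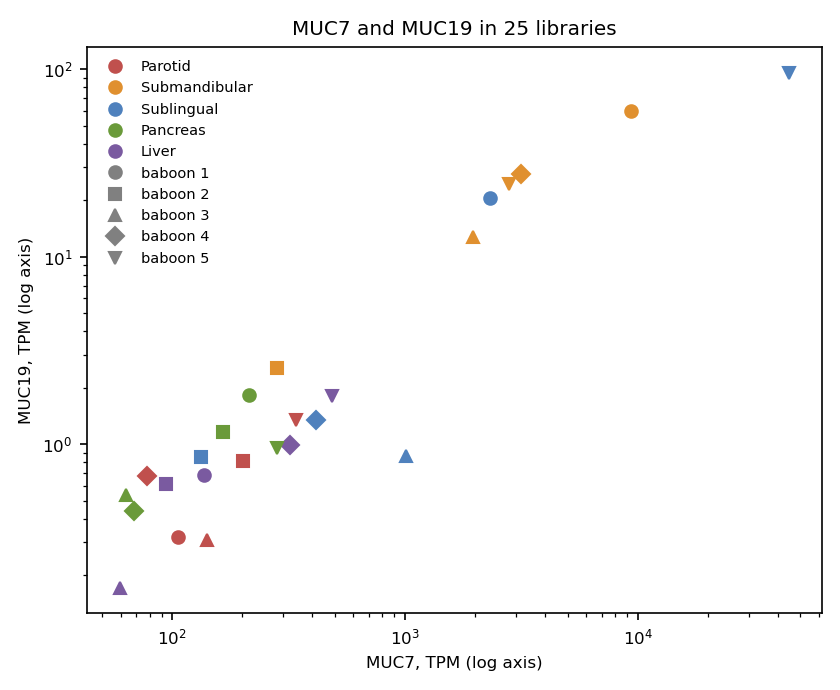
MUC19 against MUC7 in the 25 libraries, both in TPM on log axes, with colour for tissue and symbol for animal. The sublingual library of baboon 5 (44549.7 and 95.6 TPM) and the submandibular library of baboon 1 (9327 and 59.8 TPM) are at the top right, and the sublingual library of baboon 3 lies below the trend with 1014 TPM of MUC7 and 0.870 TPM of MUC19.

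MUC7 and MUC19 tracked each other over the libraries, with a Pearson r of 0.94 on log2(TPM + 1) over 25 libraries and 0.89 over the 23 left without the sublingual library of baboon 5 and the submandibular library of baboon 1. These points share animals and sections, and r is given as a description. MUC19 amounted to 0.642%, 0.906%, 0.650%, 0.877% and 0.879% of the MUC7 level in the submandibular libraries of baboons 1 to 5. In the sublingual libraries the same ratio was 0.884%, 0.640%, 0.0858%, 0.323% and 0.214%. The submandibular ratio was narrow across a 33.0-fold range of MUC7, whereas the sublingual ratio varied, with baboons 3, 4 and 5 well below every submandibular library and baboon 2 just below the lowest of them. MUC19 reached 0.219 to 0.875% of MUC7 in parotid, 0.342 to 0.855% in pancreas and 0.288 to 0.651% in liver.

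The genes whose pattern was most like MUC7 were MUC19, CAPN9 (a calpain protease of the digestive tract, r = 0.94) and ST6GALNAC1 (r = 0.92), the sialyltransferase that caps the first sugar of mucin O-glycans. For MUC19 they were CHRM1, the M1 muscarinic acetylcholine receptor (r = 0.95), ST6GALNAC1 (r = 0.94) and MUC7. Without the same 2 libraries r stayed between 0.89 and 0.93 for these pairs. ST6GALNAC1 measured 60.7, 0.832, 21.5, 36.6 and 32.3 TPM in the submandibular libraries of baboons 1 to 5 and 43.5, 0.840, 3.82, 6.43 and 48.2 TPM in the sublingual ones. It too was lowest in baboon 2 in both glands.

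Outside the mucin-rich glands, MUC7 was measurable in every library. Its mean was 4.95% of the submandibular mean in parotid, 4.52% in pancreas and 6.27% in liver, and that of MUC19 was 2.72%, 3.87% and 3.35%. Other abundant salivary secretory genes were present there too: PIP, the prolactin-induced protein, had 8.33% of its submandibular mean in pancreas and 8.91% in liver, BPIFA2, a salivary lipid-binding protein, had 3.15% and 3.26%, and ZG16B, a secreted lectin, had 24.1% and 30.0%. The sublingual means of MUC7, PIP and ZG16B were 277%, 192% and 1313% of the submandibular ones. They rest largely on baboon 5, with 44549.7 TPM of MUC7 and the PIP and ZG16B levels given above. By the median, MUC7 was lower in sublingual (1014 TPM) than in submandibular gland (2789.9 TPM). Against these sublingual means the percentages of the 3 genes would be smaller, most of all for ZG16B. Set against their own highest tissue, ALB (albumin) was at 0.378 to 0.955% of its liver mean in the other 4 tissues, and CPA1 (pancreatic carboxypeptidase) at 0.537 to 0.839% of its pancreas mean. Whether the MUC7 transcripts in pancreas and liver were made in those tissues was not tested.

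MUC5B, the main polymeric mucin of saliva, was all but limited to 1 library. Sublingual libraries of baboons 1 to 5 gave 86.7, 0.410, 0.947, 0.145 and 0.0471 TPM. Every one of the other 20 libraries was at or below 0.572 TPM, the value of the submandibular library of baboon 2. The sublingual mean was therefore 17.7 ± 38.6 TPM against a median of 0.410 TPM, and means in the other tissues were 0.13 (parotid), 0.186 (submandibular), 0.164 (pancreas) and 0.135 TPM (liver), n = 5 each. The fitted sublingual difference was 1.43 ± 0.67 from pancreas and 1.46 ± 0.67 from liver (SE; limma adjusted p = 0.150 and 0.153), which did not pass. Without the 2 sublingual libraries rich in KRT13, a keratin of stratified mucosa, these fell to 0.26 and 0.29 (limma adjusted p = 0.625 and 0.438).

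The sublingual library of baboon 1 that held MUC5B was also the one with the highest stratified mucosa sum (120126 TPM), and had 40.5 TPM of AQP5. FCGBP, a mucus protein that binds to gel-forming mucins, was 33.7, 0.280, 20.0, 0.514 and 23.4 TPM in sublingual gland of baboons 1 to 5, so baboons 3 and 5 had FCGBP with less than 1 TPM of MUC5B. The genes most like MUC5B over 25 libraries were DYNAP, SOX21 and CALB2 (r = 0.98, 0.98 and 0.98). Without sublingual gland of baboons 1 and 3, r dropped to 0.46, 0.54 and 0.47. The 3 genes measured 23.1, 6.03 and 54.8 TPM in baboon 1 but 0, 0 and 0.0722 TPM in baboon 3. This likeness therefore rests on the sublingual library of baboon 1. MUC5AC, the gel-forming mucin gene next to MUC5B in the RefSeq gene order, averaged at most 0.0373 TPM in any tissue.

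MUC1, the widely expressed membrane mucin of ductal and glandular epithelium, had its highest level in the pancreas. Pancreas libraries of baboons 1 to 5 gave 29.0, 80.1, 72.7, 39.0 and 74.5 TPM. Sublingual libraries gave 14.1, 0.824, 16.3, 17.4 and 0.770 TPM. Every pancreas value lay above every value of the other 4 tissues, and sublingual gland split into 3 libraries above 14 TPM and 2 below 1 TPM. Parotid measured 0.290, 2.56, 1.46, 0.350 and 1.04 TPM. Submandibular gland measured 0.565, 2.96, 1.55, 0.557 and 0.746 TPM. Liver measured 0.837, 1.34, 0.489, 0.739 and 1.43 TPM. These last 3 tissues overlapped at a low level, with 2 parotid and 2 submandibular libraries above the highest liver library. The means were 59.1 ± 23.3 TPM in pancreas, 9.88 ± 8.38 in sublingual, 1.27 ± 1.03 in submandibular, 1.14 ± 0.932 in parotid and 0.967 ± 0.404 in liver (SD, n = 5).

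MUC1 was called lower than in pancreas in parotid (-4.81 ± 0.59, SE; limma adjusted p = 4.6e-06), in submandibular (-4.72 ± 0.59; limma adjusted p = 6e-06) and in sublingual gland (-3.02 ± 0.59; limma adjusted p = 0.00202), and higher in pancreas than in liver (4.85 ± 0.59; limma adjusted p = 8e-07). All 5 animals showed each of these directions. The sublingual difference from pancreas had an adjusted p of 0.0577 (limma) when only these 2 tissues were fitted. Sublingual MUC1 was above liver by 1.83 ± 0.59 (SE; limma adjusted p = 0.0349), in 3 of 5 animals. Leaving out baboons 1, 3 or 4 ended that call (1.53, 1.41 and 1.44; limma adjusted p = 0.187, 0.266 and 0.206), and without the KRT13-rich sublingual gland of baboons 1 and 4 the difference was 0.68 (limma adjusted p = 0.540). It also missed with only these 2 tissues fitted and with no filter on low values (limma adjusted p = 0.134 and 0.0604).

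Pancreatic duct markers (4 genes) summed to 45.0 to 72.5 TPM in the pancreas libraries and to at most 44.3 TPM elsewhere, that one being the parotid library of baboon 2. In baboons 1 to 5 the pancreas sums were 72.5, 69.1, 57.1, 55.5 and 45.0 TPM, so baboon 1, lowest in MUC1, was the highest. The genes most like MUC1 were KCNJ15, a potassium channel (r = 0.93), TPRN (r = 0.93) and PTK6, an epithelial tyrosine kinase (r = 0.92). Over the 23 libraries left without pancreas of baboons 2 and 5, r was 0.90, 0.90 and 0.89. PTK6 averaged 104 ± 9.56 TPM in pancreas and 3.49 ± 4.50 TPM in sublingual gland (SD, n = 5).

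MUC15, a membrane mucin of epithelial cells, was higher in the sublingual gland. There baboons 1 to 5 had 34.7, 0.179, 11.9, 4.90 and 28.6 TPM. In 4 of 5 animals it lay above all libraries of the other tissues, whose highest value was 3.86 TPM in parotid of baboon 3, and baboon 2 lay within them. Parotid measured 0.832, 0.263, 3.86, 0.386 and 0.382 TPM. Submandibular gland measured 0.778, 0.469, 1.12, 0.863 and 0.458 TPM. Pancreas ranged from 0.114 to 0.446 TPM and liver from 0 to 0.441 TPM. No tissue other than sublingual exceeded a mean of 1.14 TPM.

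Sublingual MUC15 was higher than in pancreas by 2.97 ± 0.55 (SE; limma adjusted p = 0.00109) and than in liver by 3.04 ± 0.55 (SE; limma adjusted p = 0.000241). Both held under all 16 alternative settings, with limma adjusted p from 1.9e-06 to 0.0498 against pancreas and from 3.1e-07 to 0.0297 against liver. MUC15 and MUC1 parted in the sublingual library of baboon 5 alone, with 28.6 TPM of MUC15 and 0.770 TPM of MUC1. Both were raised in baboons 1, 3 and 4 (at least 4.90 TPM of MUC15 and 14.1 TPM of MUC1). Baboon 2 was low in both (0.179 and 0.824 TPM). Over 25 libraries, which include the pancreas with high MUC1 and low MUC15, the 2 genes had a Pearson r of 0.07, a description only.

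MUC4, MUC13 and MUC16, the other membrane mucins, stayed near or below 1 TPM. MUC4, a large mucin of airway and gut surfaces with growth-factor-like domains, measured 0.572, 4.51, 0.249, 0.421 and 0.200 TPM in pancreas, where baboon 2 stood alone. Its other 20 libraries ranged from 0.0696 TPM in liver to 1.41 TPM in the sublingual library of baboon 5. MUC4 was above liver in 5 of 5 animals in each of the other tissues, but no fitted difference passed, the widest being 0.66 ± 0.32 for pancreas against liver (SE; limma adjusted p = 0.176).

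MUC13, a membrane mucin best known from the gut, was at or below 0.596 TPM outside 2 libraries of baboon 2: submandibular with 1.93 TPM and parotid with 1.05 TPM. These 2 libraries also had 2775 and 21274 TPM over the 5 adipose markers and 5.40 and 2.25 TPM of AQP5. The submandibular library of baboon 5 had 6860.1 TPM over the adipose markers and 0.388 TPM of MUC13. The part of fat or other tissue in these values was not tested.

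MUC16, the very large mucin of mucosal and mesothelial surfaces, measured 0.695, 0.0190, 0.334, 1.39 and 0.0196 TPM in sublingual gland of baboons 1 to 5. The libraries of baboons 4 and 1, the highest, were those rich in stratified mucosa markers, and baboon 3, with 344 TPM over these markers, came next. Liver libraries gave 0.013, 0.142, 0.13, 0.00561 and 0.938 TPM of MUC16. Mesothelial markers (3 of 4 listed were measured) summed to 1.24, 12.9, 7.67, 0 and 7.93 TPM in the same liver libraries, with UPK3B the most abundant, and all 3 were at 0 in baboon 4, the liver with the least MUC16. Parotid, submandibular and pancreas libraries were at or below 0.106 TPM. The part of mucosa or mesothelium in these values was not tested.

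**Figure D3:**
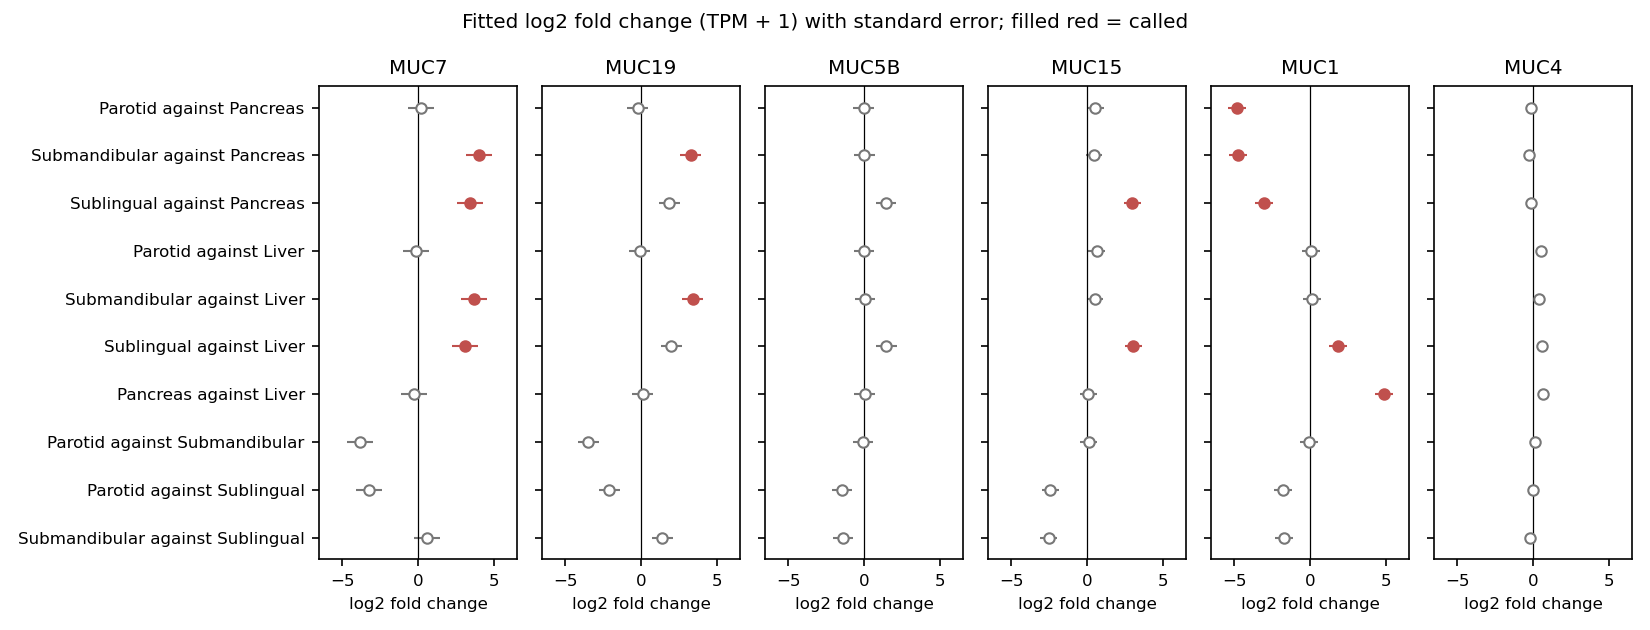
Fitted log2 fold change on the TPM + 1 scale with its standard error for the 6 tested mucins (panels) in the 10 tissue comparisons; a positive value is higher in the tissue named first, and filled red points passed the call rule. Red points stand at MUC7 and MUC19 for submandibular, MUC7 and MUC15 for sublingual and MUC1 for pancreas, with MUC1 also red in sublingual against liver, and no point is red in the 3 comparisons between glands.

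Counted by comparison, 1 of 6 tested mucins was called in parotid against pancreas (MUC1), where 3.82% of all tested genes were called. In submandibular against pancreas 3 were called (MUC7, MUC19 and MUC1), against 4.08% of all genes. In sublingual against pancreas 3 were called (MUC7, MUC15 and MUC1), against 9.47%. Pancreas against liver had 1 (MUC1), against 17.5%. Submandibular against liver had 2 (MUC7 and MUC19), against 16.5%, and sublingual against liver had 3 (MUC7, MUC15 and MUC1), against 15.4%. Parotid against liver had 0 by limma at the adjusted threshold, against 13.8% of all genes called. It also had 0 at an unadjusted p under 0.05 (limma), against 3843 of 14991 genes.

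Between the glands no mucin was called. In parotid against submandibular the count was 0 by limma, with 2 mucins at an unadjusted p under 0.05, and 0% of all genes were called (254 at an unadjusted p under 0.05). MUC19 was nonetheless separate in these groups: each submandibular library (2.56 TPM or more) exceeded each parotid library (1.34 TPM or less), a difference of -3.49 ± 0.69 (SE; limma adjusted p = 0.150), and MUC7 differed by -3.82 ± 0.86 (SE; limma adjusted p = 0.358). In parotid against sublingual 0 were called by limma, with 0.113% of all genes called. At an unadjusted p under 0.05 (limma) there were 5 of 6 mucins, beside 1368 of 14991 genes. The largest differences there were -3.22 ± 0.86 for MUC7 and -2.42 ± 0.55 for MUC15 (SE; limma adjusted p = 0.138 and 0.0811). In submandibular against sublingual 0 were called by limma, with 0.0667% of all genes called. The mucins at an unadjusted p under 0.05 (limma) were 3 of 6, beside 2109 of 14991 genes. MUC15 differed by -2.53 ± 0.55 (SE; limma adjusted p = 0.0782) and MUC7 by 0.59 ± 0.86 (SE; limma adjusted p = 0.735).

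The gland comparisons depended on the libraries poor in AQP5. Without those 5 libraries, a choice made after the data had been seen, 2 mucins were called in parotid against submandibular, both lower in parotid: MUC7 (-4.62 ± 0.80, SE; limma adjusted p = 0.0275) and MUC19 (-4.03 ± 0.70, SE; limma adjusted p = 0.0267), where 0.12% of all genes were called. Parotid of baboons 2 and 5, left out, had the highest parotid MUC7 (202 and 341 TPM) and MUC19 (0.814 and 1.34 TPM). Submandibular gland of baboon 2, also left out, had the lowest of its gland (283 and 2.56 TPM). The choice thus removed the values that most opposed these differences. It kept parotid of baboons 1, 3 and 4 and submandibular of baboons 1, 3, 4 and 5. In the same fit 5 of 6 mucins were called lower in parotid than in sublingual, all but MUC4, where 28.5% of all genes were called. MUC15 was the clearest of them (-3.29 ± 0.44, SE; limma adjusted p = 0.000676). Sublingual gland of baboons 2 and 4, left out here, had the lowest sublingual MUC7 (133 and 415 TPM) and MUC15 (0.179 and 4.90 TPM). Baboon 4 had the highest sublingual MUC1 (17.4 TPM). Submandibular against sublingual then had 3 mucins lower in submandibular (MUC15, MUC1 and MUC5B) against 30.4% of all genes. MUC5B, which passed the filter through sublingual gland alone, was 86.7, 0.947 and 0.0471 TPM in the 3 sublingual libraries left, so baboon 1 was far above the other 2, and without the KRT13-rich libraries alone its difference was -0.24 (limma adjusted p = 0.999). Without the AQP5-poor libraries MUC15 stood at -3.69 ± 0.40 (SE; limma adjusted p = 9.3e-05). In that fit the sublingual gland had 5 of 6 mucins called against pancreas, where 30.3% of all genes were, and 5 of 6 against liver, where 25.7% were. Leaving out baboon 2 whole gave 2, 3 and 2 calls in the 3 comparisons between glands. Leaving out only the sublingual library of baboon 5, which left the parotid and submandibular values untouched, also gave 2 calls between these glands at the same log2 fold changes (limma adjusted p = 0.0441 for MUC7 and 0.0179 for MUC19), since the fit shares 1 estimate of spread over all tissues. The share of all genes called is not given for the fits without baboon 2 or without this library. Their counts are therefore a description and no result about mucins.

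**Figure D4:**
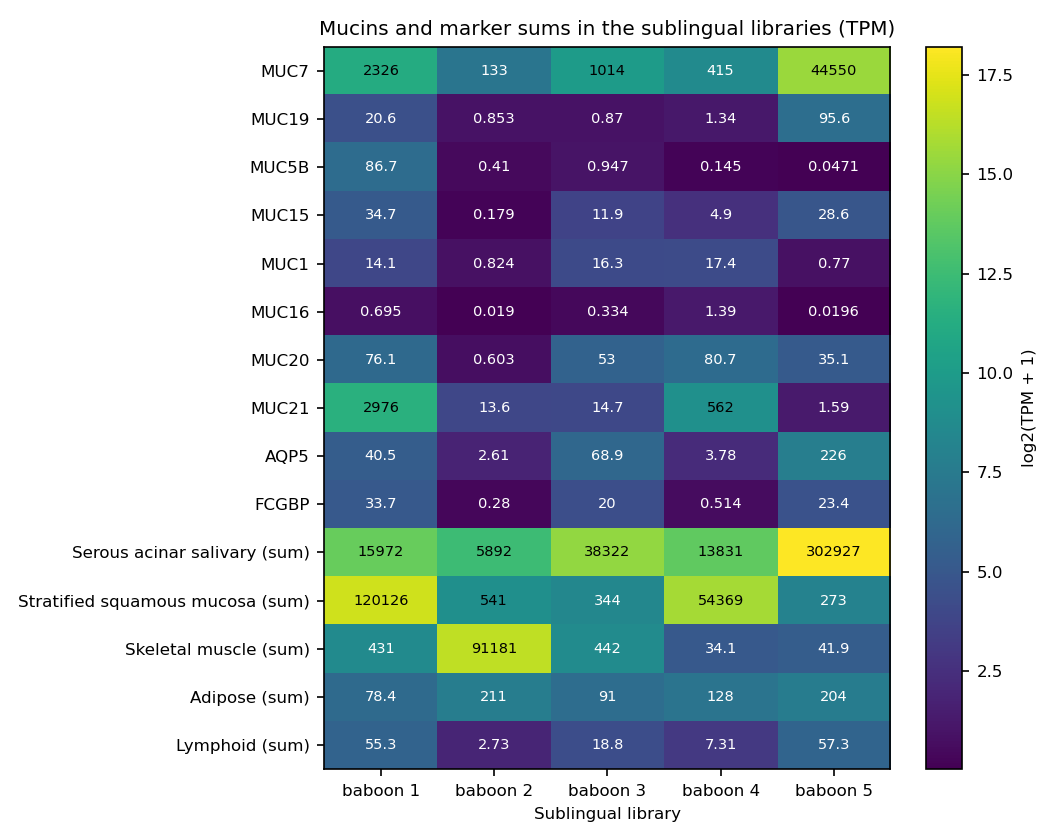
TPM of 8 mucin genes, AQP5 and FCGBP and summed TPM of 5 marker lists in the 5 sublingual libraries, with the value printed in each cell and colour for log2(TPM + 1). Baboon 2 is lowest in MUC7, MUC15 and MUC20 and highest in the skeletal muscle sum (91181 TPM); baboon 5 is highest in MUC7 and the serous sum; baboons 1 and 4 are highest in MUC21 and the stratified mucosa sum.

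The 5 sublingual sections carried different sets of mucins. Baboon 1 had 5 listed mucins at 10 TPM or more (MUC7, MUC19, MUC5B, MUC15 and MUC1), baboon 3 had 3, baboon 5 had 3, baboon 4 had 2 and baboon 2 had MUC7 alone. The library of baboon 5 was high in MUC7, MUC19 and MUC15 but had 0.0471 TPM of MUC5B, beside 217252 TPM of ZG16B. Baboon 4, with 3.78 TPM of AQP5, had 17.4 TPM of MUC1 and 1.34 TPM of MUC19.

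Of 15 other mucins and mucin-like genes, 12 were measured and 7 tested. MUC20, a membrane mucin gene that lies next to MUC4 in the RefSeq gene order, gave 76.1, 0.603, 53.0, 80.7 and 35.1 TPM in sublingual gland of baboons 1 to 5 and 0.325 to 1.18 TPM in liver. It was called higher in sublingual gland than in pancreas (2.89 ± 0.67, SE; limma adjusted p = 0.00893) and liver (4.11 ± 0.67, SE; limma adjusted p = 7.3e-05), and in submandibular gland than in liver (1.97 ± 0.67, SE; limma adjusted p = 0.0457). EMCN, endomucin of vascular endothelium, was called higher in submandibular gland than in liver (2.13 ± 0.69, SE; limma adjusted p = 0.0353), with 3.90, 111, 3.99, 2.34 and 17.2 TPM in submandibular gland of baboons 1 to 5 and 0.624 to 1.89 TPM in liver. Endothelium markers (3 genes) summed to 2.90, 206, 3.51, 2.15 and 47.1 TPM in the same submandibular libraries and to 2.10 to 4.25 TPM in liver, so EMCN and these markers were highest in the same 2 libraries, and their part in the EMCN call was not tested. These were the 4 calls of this list over the 10 comparisons: 1 of 7 genes in sublingual against pancreas (9.47% over all genes), 1 of 7 in sublingual against liver (15.4%) and 2 of 7 in submandibular against liver (16.5%). MUC20 was thus shared by the sublingual libraries in which MUC1 was high (baboons 1, 3 and 4) and by baboon 5.

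The genes that serve mucin production gave a mixed picture. Of 20 listed genes for mucous cell identity, mucin folding, mucus partners and mucin glycosylation, 16 were measured and all 16 tested. In submandibular against pancreas 2 were higher, ST6GALNAC1 (3.63 ± 0.68) and SPDEF, a transcription factor of mucous and goblet cells (2.99 ± 0.70, SE; limma adjusted p = 0.00139 and 0.0108), and 3 were lower, ZG16, TFF3 and FOXA3, 5 of 16 where 4.08% of all genes were called, with a list median of 0.30 against 0.17 for all genes tested. In sublingual against pancreas 5 were higher and 2 lower, 7 of 16 where 9.47% of all genes were called, with a median of 1.17 against 0.63. FCGBP (2.68 ± 0.59, SE; limma adjusted p = 0.00552) and GALNT12, an enzyme that starts O-glycans (1.84 ± 0.56, SE; limma adjusted p = 0.0414), were among the higher. The lower genes included ZG16, a zymogen granule lectin, which averaged 15678 TPM in pancreas and at most 144 TPM elsewhere.

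In parotid against pancreas 3 of these 16 genes were lower and none higher by limma, where 3.82% of all genes were called. The median was -0.19 against 0.45 for all genes. At an unadjusted p under 0.05 in either direction (limma) there were 7 of 16, beside 2779 of 14991 genes. Against liver, 7 were higher and 1 lower in sublingual (15.4% of all genes called; median 1.26 against 0.17). In submandibular 4 were higher and 2 lower (16.5% of all genes called; median 0.06 against -0.27), and in parotid 1 higher and 3 lower (13.8% of all genes called; median -0.0015 against 0.013). Pancreas against liver had 2 of 16 called, both higher in pancreas and 12.5% of the list, below the 17.5% of all genes. Between glands, AGR3, a protein disulfide isomerase relative, was lower in parotid than in sublingual (-2.94 ± 0.59, SE; limma adjusted p = 0.0491). This was 1 of 16 and just under the threshold, where 0.113% of all genes were called. By limma 0 of 16 were called in parotid against submandibular and in submandibular against sublingual. At an unadjusted p under 0.05 (limma) these had 3 and 6 of 16, beside 254 and 2109 of 14991 genes. AGR3 measured 48.2, 0.451, 11.1, 44.7 and 2.97 TPM in sublingual gland of baboons 1 to 5, high in the same 3 animals as MUC1. The 2 highest libraries were those rich in stratified mucosa markers (120126 and 54369 TPM), while baboon 3 had 344 TPM over these markers. The part of mucosa in the AGR3 call was not tested, and the call is given from the main fit only.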

How the data were processed

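Messenger RNA was sequenced in 25 libraries of 5 tissues from 5 animals. The values used are the authors' deposited TPM values, 1 column for each of the 25 libraries, from a table whose name credits kallisto, a pseudoalignment quantifier. The submitters' processing notes also name FastQC, MultiQC, cutadapt, HISAT2, SAMtools, featureCounts and DESeq2, with no versions. The genome build and transcript index were not given in the sources used here, so no coordinates are printed. Library sums ran from 999999.5 to 1000000.6 TPM. TPM keeps no depth, so no counting interval was computed and precision rests on 5 animals per tissue. All 21287 identifiers matched RefSeq symbols of the Panubis1.0 gene table, which was used for names and gene order only.

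Columns were mapped to samples by library name. The 14991 genes that averaged 1 TPM or more over the 5 libraries of some tissue were fitted as log2(TPM + 1), pseudocount 1, with limma 3.58.1 (R 4.3.3; trended empirical Bayes) on tissue and animal terms, using all 25 libraries. P-values were adjusted by Benjamini-Hochberg over all 14991 genes within a comparison. A fold change on this scale understates the change of low genes. Tissues of 1 animal are paired by the animal identity in the labels. Deviations from tissue means correlated by 0.16 on average over 50 same-animal pairs and by -0.035 over 200 pairs of different animals. Deviations from a tissue mean cancel over its animals, so the second value largely follows from the first and is no independent reference.

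The alternatives were no animal term, only the 2 tissues compared, scaling by the trimmed mean of M values (TMM, without count-based weights because the values are TPM) or by the median of ratios, no filter or one at 5 TPM, a pseudocount of 0.1, adjusted p alone, and each animal left out. A further 3 were added after the data had been seen: without gland libraries under 10 TPM of AQP5, without sublingual libraries over 10000 TPM of KRT13, and without the sublingual library of baboon 5. The members, the marker lists and the other gene lists were chosen with earlier results of these data known. Genes named are the 9 members, up to 4 called genes in each direction from 2 gene lists, marker genes of the tissues, the RefSeq neighbours of members, and the 3 genes of highest Pearson r with MUC7, MUC19, MUC5B and MUC1. Tables and plots used Python 3.11.15, pandas 2.3.3 and matplotlib 3.10.9.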

Additional observations from a re-analysis of the deposited data

Results flagged for a closer look

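Of 40 groups of 5 libraries (8 mucins in 5 tissues), 10 had 1 library whose gap to the nearest other exceeded the Dixon limit of 0.71 of the group's range, always the highest one. Chance gives about 1 in 20 groups, and the values are on the TPM scale, where high values spread. MUC7 was 44549.7 TPM in the sublingual library of baboon 5 against 2326 TPM in the next highest, and MUC19 was 95.6 TPM there against 20.6 TPM. MUC5B was 86.7 TPM in the sublingual library of baboon 1 against 0.947 TPM.

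The other values were low. Baboon 2 gave 5 of them: MUC4 at 4.51 TPM in pancreas, MUC13 at 1.05 TPM in parotid and 1.93 TPM in submandibular, MUC16 at 0.106 TPM in submandibular and MUC5B at 0.428 TPM in liver. For MUC15, parotid of baboon 3 had 3.86 TPM against 0.832 TPM in the next. For MUC16, liver of baboon 5 had 0.938 TPM against 0.142 TPM in the next.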

How the results depend on the processing

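None of the 28 log2 fold changes followed reversed under the 16 alternatives; 398 values kept their side of the threshold, 27 newly passed and 23 no longer passed. The fit with no replicate block called the same number of mucins as the fit blocked on animal in all 10 comparisons (1, 3, 3, 1, 0, 2, 3, 0, 0 and 0). With only the 2 tissues fitted, sublingual against pancreas and against liver gave 1 call each. Without the gland libraries poor in AQP5, sublingual against pancreas gave 5 calls, sublingual against liver 5, parotid against submandibular 2, parotid against sublingual 5 and submandibular against sublingual 3. Without the sublingual library of baboon 5, parotid against submandibular gave 2. Leaving out 1 animal gave 1 to 3 calls in submandibular against pancreas, 2 to 4 in sublingual against pancreas, 1 to 2 in submandibular against liver, 1 to 4 in sublingual against liver, 0 to 2 in parotid against submandibular, 0 to 3 in parotid against sublingual, 0 to 2 in submandibular against sublingual, 1 in parotid against pancreas and in pancreas against liver, and 0 in parotid against liver. Fewer libraries enter these fits, yet counts moved up as well as down, and the cause of these moves was not tested. The share of all genes called is not given for the fits of 2 tissues, without 1 animal or without the sublingual library of baboon 5. Those counts are a description only.

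Scaling shifted the median over all 14991 genes, from 0.63 as deposited to 0.10 with TMM in sublingual against pancreas and from -0.44 to -0.03 in pancreas against liver. Genes called over all went from 572 to 1223 in parotid against pancreas, from 611 to 1275 in submandibular against pancreas, from 17 to 53 in parotid against sublingual, from 10 to 1 in submandibular against sublingual and from 0 to 1 in parotid against submandibular. Under TMM scaling submandibular means moved from 3502 to 6238 TPM for MUC7, from 25.5 to 44.6 for MUC19 and from 0.738 to 1.19 for MUC15, the last by more than its SD. Sublingual means moved from 9688 to 6313 TPM for MUC7, from 23.8 to 15.2 for MUC19, from 17.7 to 9.45 for MUC5B and from 16.1 to 10.1 for MUC15. Read depth is unknown, so values below 1 TPM carry an error that cannot be given.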

Other observations

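MUC21, a membrane mucin of stratified epithelium, measured 2976, 13.6, 14.7, 562 and 1.59 TPM in sublingual gland of baboons 1 to 5. In baboons 1 and 4 it was above MUC7, which measured 2326 and 415 TPM there. The 2 highest were the libraries with the highest stratified mucosa sums, 120126 and 54369 TPM, and the highest value of MUC21 in any other tissue was 22.1 TPM in submandibular gland. MUC20, by contrast, was 53.0 TPM in baboon 3, where the stratified mucosa sum was 344 TPM. The part of oral mucosa in these values was not tested.

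OPRPN, the gene next to MUC7 in the RefSeq gene order and a secreted proline-rich protein of glands, measured 252, 2.73, 9.88, 17.2 and 2.66 TPM in parotid of baboons 1 to 5 and 229.9, 5.37, 17.1, 141 and 52.8 TPM in submandibular gland. It averaged 5.70 TPM in sublingual gland, 1.90 in pancreas and 2.86 in liver, n = 5 each. The parotid mean of 56.8 TPM rests on baboon 1. AMTN, the neighbour on the other side, averaged at most 0.442 TPM in any tissue.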
